A study of Mus musculus with 4 samples.

Results

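The transcription factors described here hold mouse embryonic stem cells (mESCs) in the naive state of pluripotency. They are *Esrrb*, *Klf2*, *Klf4*, *Klf5*, *Tfcp2l1*, *Tbx3*, *Nr0b1*, *Nr5a2*, *Prdm14* and *Stat3*, named from knowledge of the naive network and found by their gene symbols, which gave 10 of the 24347 gene rows. They were measured by RNA-seq of total RNA from embryoid bodies (EBs), aggregates in which mESCs differentiate, at day 3. WT EBs were compared with EBs whose *Gm11549* promoter had been deleted (genotype NEMEP promoter-KO, here promoter KO), with 2 samples of each genotype, named WT 1 and WT 2, and promoter KO 1 and promoter KO 2. *Gm11549* encodes the micropeptide NEMEP, and the series addresses its function in mesendoderm differentiation. All 4 samples are of strain 129/Ola and were grown as EBs on bacterial plates in serum medium from which LIF had been withdrawn, with no other treatment. The promoter KO lines were made with CRISPR/Cas9 and a pair of guides and grown from single sorted cells. The labels do not say which line gave which sample, so a difference between lines and a difference between cultures of 1 line cannot be told apart.

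Naive mESCs are kept in self-renewal by LIF, which signals through its receptor and JAK kinases to STAT3, and by low activity of the ERK and GSK3 kinases. STAT3 raises the transcription of *Klf4* and *Tfcp2l1*, release of TCF7L1 repression raises *Esrrb*, and these factors sustain each other together with OCT4, SOX2 and NANOG. When mESCs leave the naive state the naive factors are switched off, a formative program with *Otx2*, *Fgf5* and *Pou3f1* comes up, and the cells can then enter lineages such as mesendoderm.

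The values are in FPKM, which scales the fragments of a gene to its transcript length and to all mapped fragments, so levels can be compared between genes. They summed to 677777 and 696928 FPKM in WT 1 and WT 2, compared with 673951 FPKM (promoter KO 1) and 679870 FPKM (promoter KO 2). The lowest values of genes with a single transcript placed the depth at about 24600000, 21800000, 21600000 and 20100000 fragments in the same order, if fragments are taken to be 200 bases long. Genotypes were compared on log2(FPKM + 1) with limma in the 11941 genes that reached 1 FPKM in 2 or more samples, and a gene was called at a Benjamini-Hochberg adjusted p under 0.05. The added 1 makes the log2 differences of low genes smaller than the ratio of their FPKM. The study calls the samples of a genotype independent without saying how they were set up, so the p-values measure only the spread between these samples.

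The targeted gene *Gm11549* is annotated on the minus strand of chromosome 3 (36515057 to 36521813, GRCm38). It was at 0.75 and 0.522 FPKM in WT 1 and WT 2, against 0 FPKM (promoter KO 1) and 0.0659 FPKM (promoter KO 2). Both promoter KO samples were under the WT samples, as their labels imply, at a level under the filter, so that no test was made. The labels call the cells mesendoderm derived from ESCs. *T*, with the highest mean over the 4 samples among 9 mesendoderm markers, was at 306 and 448 FPKM in WT 1 and WT 2, compared with 50.5 FPKM (promoter KO 1) and 127 FPKM (promoter KO 2), and *Pou5f1*, which encodes OCT4 and marks pluripotent cells, was at 1188 FPKM or more in every sample. Markers of mesendoderm and of pluripotent cells were therefore both present in all 4 samples.

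Of the 10 naive factors, 5 had promoter KO values that both exceeded the WT values (*Esrrb*, *Nr0b1*, *Nr5a2*, *Tfcp2l1* and *Klf5*), as did 32.9% of the tested genes. *Stat3* alone had promoter KO values that were both under the WT values, as did 32.4% of the tested genes. In the other 4, *Klf2*, *Klf4*, *Tbx3* and *Prdm14*, the genotypes overlapped. The median of the 10 differences was 0.73 on the log2 scale, and it was 0.80 over the 9 that were tested, beside 0.00 over all tested genes. *Nr5a2* was the 1 naive factor called higher and 0 were called lower by limma, where 1.68% of the tested genes were called higher and 1.89% lower. By an unadjusted p under 0.05, 4 were higher (*Esrrb*, *Nr0b1*, *Nr5a2* and *Tfcp2l1*) and 0 lower, where 15.0% of the tested genes were higher and 15.6% lower. *Nr5a2* passed the filter only through the promoter KO samples and *Prdm14* did not pass it, so the counts over the tested factors describe the list and carry no weight of their own. Calls depended on single samples across the whole table. The genes called without WT 1 or without promoter KO 2 were only in part those called with all samples. In limma fits without WT 2 or without promoter KO 1, 0 genes were called, with 1875 and 2009 genes at an unadjusted p under 0.05, while 175 genes were called without WT 1 and 486 without promoter KO 2, beside 427 with all samples.

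**Figure D1:**
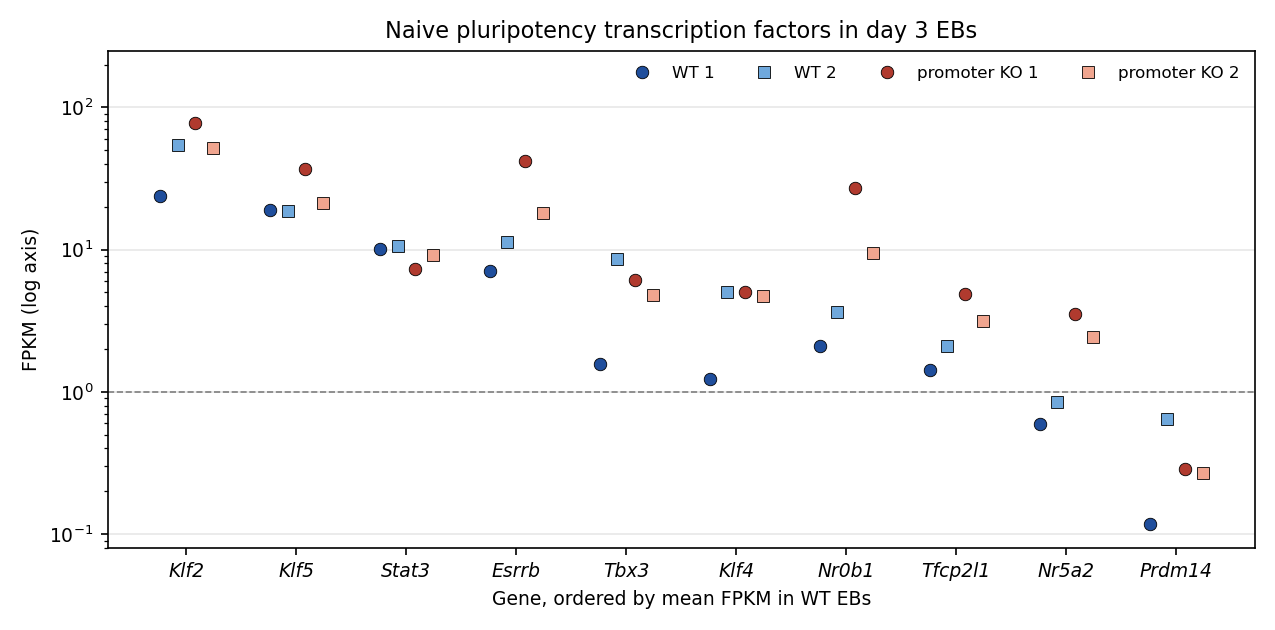
FPKM of the 10 naive factors in each sample of day 3 EBs on a log axis, with genes ordered by mean WT level. The dashed line marks the filter at 1 FPKM. *Nr0b1* and *Esrrb* stand apart between the genotypes and between the promoter KO samples, while *Tbx3* and *Klf4* are low in WT 1 alone.

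Levels per length spanned a wide range. In WT EBs *Klf2* was the most abundant, at a mean of 39.0 ± 21.5 FPKM (SD, n = 2), followed by *Klf5* at 18.8 ± 0.295 and *Stat3* at 10.3 ± 0.304. *Esrrb*, *Tbx3*, *Klf4*, *Nr0b1* and *Tfcp2l1* came next, where each gene overlapped the one before it in the order, *Stat3* included, and *Nr5a2* and *Prdm14* were last and overlapped each other. In promoter KO EBs *Klf2* was again first, at 64.8 ± 18.7 FPKM (SD, n = 2). *Esrrb* at 30.0 ± 16.9, *Klf5* at 29.0 ± 10.9 and *Nr0b1* at 18.1 ± 12.3 followed, and neighbours among these 3 overlapped. *Stat3* stood below them at 8.22 ± 1.24 FPKM and did not overlap its neighbours in the order.

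*Stat3* encodes the factor that LIF activates by phosphorylation, which RNA levels do not show. It was at 10.1 and 10.6 FPKM in WT 1 and WT 2, against 7.34 FPKM (promoter KO 1) and 9.09 FPKM (promoter KO 2). Both promoter KO samples were under the WT samples, and it was the single naive factor with promoter KO 1 below promoter KO 2. The log2 difference was -0.31 (SE 0.14, 95% interval -0.65 to 0.04), with an adjusted p of 0.198. It was -0.17 without promoter KO 1 (adjusted p = 0.58), in a range of adjusted p from 0.137 to 0.58 over its alternatives. *Stat3* is annotated on the minus strand of chromosome 11 (100885098 to 100939540, GRCm38) and overlaps *Stat5a* on the other strand. Whether reads were counted by strand is not given in the sources used here, so the reads of the pair may not be separable. In these bulk samples fewer cells that express a gene and less RNA per cell cannot be told apart, for *Stat3* and for each gene below.

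*Tfcp2l1*, a CP2-family factor and direct STAT3 target that can sustain self-renewal without LIF, was at 1.43 and 2.11 FPKM in WT 1 and WT 2, compared with 4.86 FPKM (promoter KO 1) and 3.16 FPKM (promoter KO 2). The genotypes did not overlap, and promoter KO 2 exceeded WT 2 by 0.42 on the log2 scale. The difference between genotypes was 0.85 (SE 0.22, 95% interval 0.30 to 1.39), with an adjusted p of 0.0768. The gene is annotated on the plus strand of chromosome 1 (118627945 to 118685168, GRCm38) and overlaps the predicted genes *Gm22094* and *Gm28882* on the other strand and *Gm23497* on its own, so its value carries the same uncertainty of counting as *Stat3*. Its promoter is shown as one of the factors that lay higher together. Here and below, promoters are windows of 300 bases from RefSeq (GRCm38.p6) that begin upstream of the start and end just past it, and 9 windows matched 7 of the 10 factors. They were searched on both strands for a STAT motif (TTCNNNGAA), an extended nuclear receptor motif (TCAAGGTCA), a KLF motif (GGGNGTGG) and the octamer (ATGCAAAT), which do not overlap in the windows shown. The window chr1:118627695-118627994 on the plus strand has 2 KLF matches, in capitals, read on the opposite strand, beginning at positions -61 and -47 from the start. Of all 32851 windows, 17.6% hold a KLF match.
Tfcp2l1 promoter: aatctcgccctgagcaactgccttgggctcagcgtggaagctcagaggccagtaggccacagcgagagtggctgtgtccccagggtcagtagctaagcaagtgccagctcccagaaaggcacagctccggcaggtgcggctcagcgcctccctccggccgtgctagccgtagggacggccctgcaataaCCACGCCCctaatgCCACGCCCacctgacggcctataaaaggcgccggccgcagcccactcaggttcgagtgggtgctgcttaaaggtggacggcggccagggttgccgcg

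*Klf4*, the Krüppel-like factor that STAT3 induces, was at 1.23 and 5.06 FPKM in WT 1 and WT 2, against 5.02 FPKM (promoter KO 1) and 4.69 FPKM (promoter KO 2). WT 1 stood low and the other 3 samples were alike, so that the genotypes overlapped. WT 2 was 4.11 times WT 1, whereas promoter KO 1 was 1.07 times promoter KO 2. The difference was 0.67 (SE 0.44, 95% interval -0.40 to 1.74), with an adjusted p of 0.337. Without WT 1 it was -0.05, so the direction rests on that sample.

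*Klf2*, which acts with *Klf4* and *Klf5* on shared targets and is held in check by ERK signalling, was at 23.8 and 54.2 FPKM in WT 1 and WT 2, compared with 78.0 FPKM (promoter KO 1) and 51.5 FPKM (promoter KO 2). Promoter KO 2 lay just below WT 2, while WT 1 was the lowest and promoter KO 1 the highest. The log2 difference was 0.80 (SE 0.38, 95% interval -0.14 to 1.74), with an adjusted p of 0.214. It was 0.22 without WT 1, 1.38 without WT 2 and 0.51 without promoter KO 1, with an adjusted p from 0.195 to 0.605 over its alternatives. *Klf5*, which opposes entry into primitive endoderm in the early embryo, was at 19.0 and 18.6 FPKM in WT 1 and WT 2, against 36.7 FPKM (promoter KO 1) and 21.3 FPKM (promoter KO 2). Its WT samples were close together, and promoter KO 2 lay only 0.15 above the nearer WT sample on the log2 scale. The difference was 0.55 (SE 0.24, 95% interval -0.04 to 1.13), with an adjusted p of 0.183. Without promoter KO 2 it was 0.93 (adjusted p = 0.0404) and without promoter KO 1 it was 0.17 (adjusted p = 0.505), the ends of the range over its alternatives.

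*Esrrb*, an orphan nuclear receptor and a main target of GSK3 inhibition, was at 7.10 and 11.3 FPKM in WT 1 and WT 2, compared with 41.9 FPKM (promoter KO 1) and 18.0 FPKM (promoter KO 2). Both promoter KO samples exceeded the WT samples, and promoter KO 1 was 2.33 times promoter KO 2. The means were 9.20 ± 2.97 FPKM in WT and 30.0 ± 16.9 in promoter KO (SD, n = 2 each), a ratio of 3.26. The log2 difference was 1.52 (SE 0.39, 95% interval 0.55 to 2.48), with an adjusted p of 0.0747, and it stayed above 0 when any one sample was left out. Without promoter KO 2 it was 2.1 (adjusted p = 0.0416) and without promoter KO 1 it was 0.93 (adjusted p = 0.245), which are the ends of its range over the alternatives. *Esrrb* is annotated on the plus strand of chromosome 12 (86361117 to 86521628, GRCm38). Of its windows, chr12:86360867-86361166 on the plus strand holds the one STAT match among the 9, in capitals, beginning at position -178 from the start. A STAT match is in 8.3% of all windows.
Esrrb promoter: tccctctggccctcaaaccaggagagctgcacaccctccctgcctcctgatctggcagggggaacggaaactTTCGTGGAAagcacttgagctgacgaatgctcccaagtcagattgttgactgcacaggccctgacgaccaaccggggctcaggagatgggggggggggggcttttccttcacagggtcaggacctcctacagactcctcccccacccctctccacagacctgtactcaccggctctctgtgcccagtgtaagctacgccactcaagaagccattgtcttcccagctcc

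*Nr0b1*, which encodes the atypical nuclear receptor DAX1 that binds OCT4 and other nuclear receptors, differed most among the naive factors. It was at 2.09 and 3.67 FPKM in WT 1 and WT 2, against 26.9 FPKM (promoter KO 1) and 9.43 FPKM (promoter KO 2). Both promoter KO samples lay well above both WT samples, and promoter KO 1 was 2.85 times promoter KO 2. The means were 2.88 ± 1.11 FPKM in WT and 18.1 ± 12.3 in promoter KO (SD, n = 2 each), a ratio of 6.30. The log2 difference was 2.17 (SE 0.46, 95% interval 1.04 to 3.29), with an adjusted p of 0.0583. Without promoter KO 2 it was 2.87 (adjusted p = 0.0351) and without promoter KO 1 it was 1.46 (adjusted p = 0.171), and the adjusted p ranged from 0.0351 to 0.216 over its alternatives. *Nr0b1* is annotated on the plus strand of chromosome X (86191764 to 86195947, GRCm38). Its window, chrX:86191525-86191824 on the plus strand, is shown for comparison and holds none of the 4 motifs, hence no capitals.
Nr0b1 promoter: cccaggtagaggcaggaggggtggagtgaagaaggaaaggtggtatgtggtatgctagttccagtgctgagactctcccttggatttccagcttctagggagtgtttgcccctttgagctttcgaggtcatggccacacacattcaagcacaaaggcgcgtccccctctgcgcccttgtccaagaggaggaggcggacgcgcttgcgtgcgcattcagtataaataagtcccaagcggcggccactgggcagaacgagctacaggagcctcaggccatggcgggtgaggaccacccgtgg

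*Nr5a2*, the nuclear receptor LRH-1, which can bind the *Pou5f1* promoter and overlaps with *Esrrb* in function, was at 0.596 and 0.842 FPKM in WT 1 and WT 2, compared with 3.52 FPKM (promoter KO 1) and 2.42 FPKM (promoter KO 2). The WT samples were both under 1 FPKM and the promoter KO samples both above 2 FPKM. The difference was 1.20 (SE 0.19, 95% interval 0.72 to 1.67) on the log2 scale, with an adjusted p of 0.0431. Because the gene entered the test through its promoter KO samples, a difference was built into its selection. With a pseudocount of 0.1 the difference was 1.90 (adjusted p = 0.0442), and the ratio of the mean FPKM was 4.13. The adjusted p was 0.0999 without WT 1, 0.197 without WT 2, 0.171 without promoter KO 1 and 0.0443 without promoter KO 2, and it ranged from 0.0306 to 0.197 over all alternatives. It was also past 0.05 without the filter (0.144) and in limma without the trend (0.0621), and a filter at a mean of 5 FPKM removed the gene. *Nr5a2* is annotated on the minus strand of chromosome 1 (136842571 to 136960448, GRCm38). Of its 2 windows, the internal chr1:136953581-136953880 on the minus strand holds a KLF match, in capitals, beginning at position -157 from the start.
Nr5a2 promoter: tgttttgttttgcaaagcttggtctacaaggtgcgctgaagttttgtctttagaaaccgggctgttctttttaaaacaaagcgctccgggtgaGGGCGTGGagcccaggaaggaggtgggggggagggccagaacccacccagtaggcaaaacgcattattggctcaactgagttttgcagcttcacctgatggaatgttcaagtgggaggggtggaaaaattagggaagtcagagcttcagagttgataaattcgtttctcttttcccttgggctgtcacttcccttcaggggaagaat

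Among the 9 windows, 0 held the extended nuclear receptor motif and 0 the octamer, which are in 0.423% and 1.74% of all windows. A match is given as a feature of the letters and not as a bound site.

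*Tbx3*, a T-box factor that supports self-renewal and is also used in early mesendoderm and extraembryonic lineages, was at 1.58 and 8.63 FPKM in WT 1 and WT 2, against 6.16 FPKM (promoter KO 1) and 4.82 FPKM (promoter KO 2). The highest and the lowest value were both in WT samples, and WT 2 was 5.46 times WT 1. The log2 difference was 0.37 (SE 0.57, 95% interval -1.02 to 1.77), with an adjusted p of 0.687. Without WT 1 it was -0.58, so its direction too rests on WT 1. *Tbx3* overlaps *Tbx3os1* on the other strand, and their reads may not be separable. *Prdm14*, which represses FGF signalling and DNA methyltransferases, was at 0.118 and 0.645 FPKM in WT 1 and WT 2, compared with 0.288 FPKM (promoter KO 1) and 0.269 FPKM (promoter KO 2). The genotypes overlapped, with both promoter KO samples between the WT samples. These values stand for about 6.87, 33.2, 14.7 and 12.8 fragments over the longest transcript, too few for a firm comparison, and *Prdm14* was not tested.

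**Figure D2:**
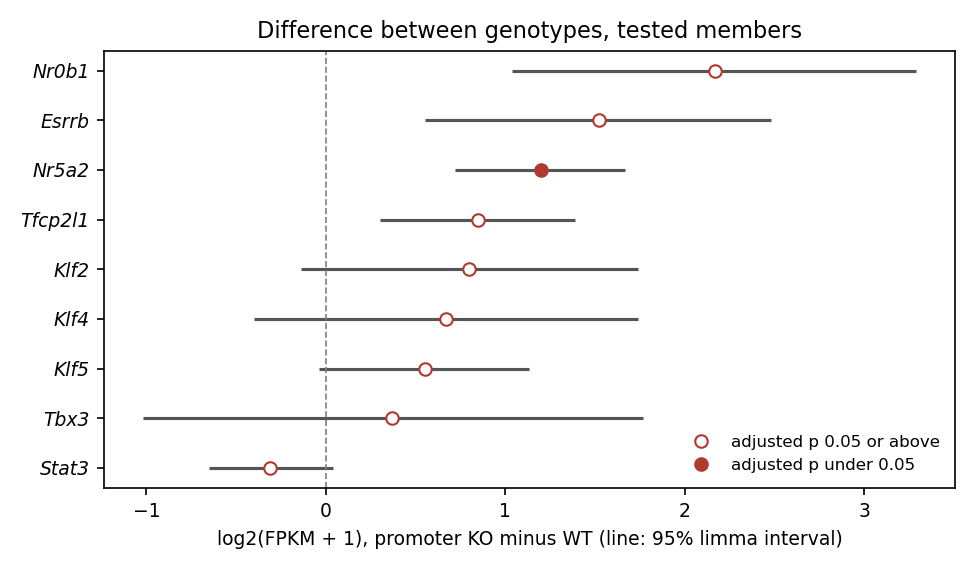
Difference between promoter KO and WT EBs in log2(FPKM + 1) for the 9 tested naive factors, with 95% intervals from limma. The filled point (*Nr5a2*) has an adjusted p under 0.05, and *Nr0b1* has the largest difference, 2.17.

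The spread between samples of 1 genotype was wide for these genes. Promoter KO 1 exceeded promoter KO 2 in 9 of the 10 naive factors, *Stat3* being the exception, where 46.5% of all tested genes had promoter KO 1 above promoter KO 2. The median of the difference between the promoter KO samples was 0.45 over the 10 factors, and its median size over all tested genes was 0.14. The gap was 1.42 for *Nr0b1*, 1.17 for *Esrrb* and 0.76 for *Klf5*, and gaps as large were found in 0.276%, 0.435% and 1.84% of the tested genes. *Klf2* had a gap of 0.59, *Tfcp2l1* of 0.50 and *Nr5a2* of 0.40. In *Klf5* the gap within promoter KO was larger than the difference between the genotypes, and in *Esrrb* and *Nr0b1* it was smaller. *Klf4* (0.08) and *Prdm14* (0.02) hardly differed between the promoter KO samples.

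The WT samples differed as well. WT 2 exceeded WT 1 in 9 of the 10 naive factors, *Klf5* being the exception, where 49.1% of all tested genes had WT 2 above WT 1. WT 1 minus WT 2 was -1.90 for *Tbx3*, -1.44 for *Klf4* and -1.15 for *Klf2*, and gaps of that size were found in 0.159%, 0.394% and 0.729% of the tested genes. In these 3 genes the WT gap was larger than the promoter KO gap. The median was -0.58 over the 10 factors, and the median size over all tested genes was 0.13. After centring each gene on its mean, the 9 tested factors averaged -0.78 in WT 1 and -0.08 in WT 2, but 0.71 and 0.16 in promoter KO 1 and promoter KO 2, so that on this average WT 2 and promoter KO 2 were the closest samples of different genotype.

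**Figure D3:**
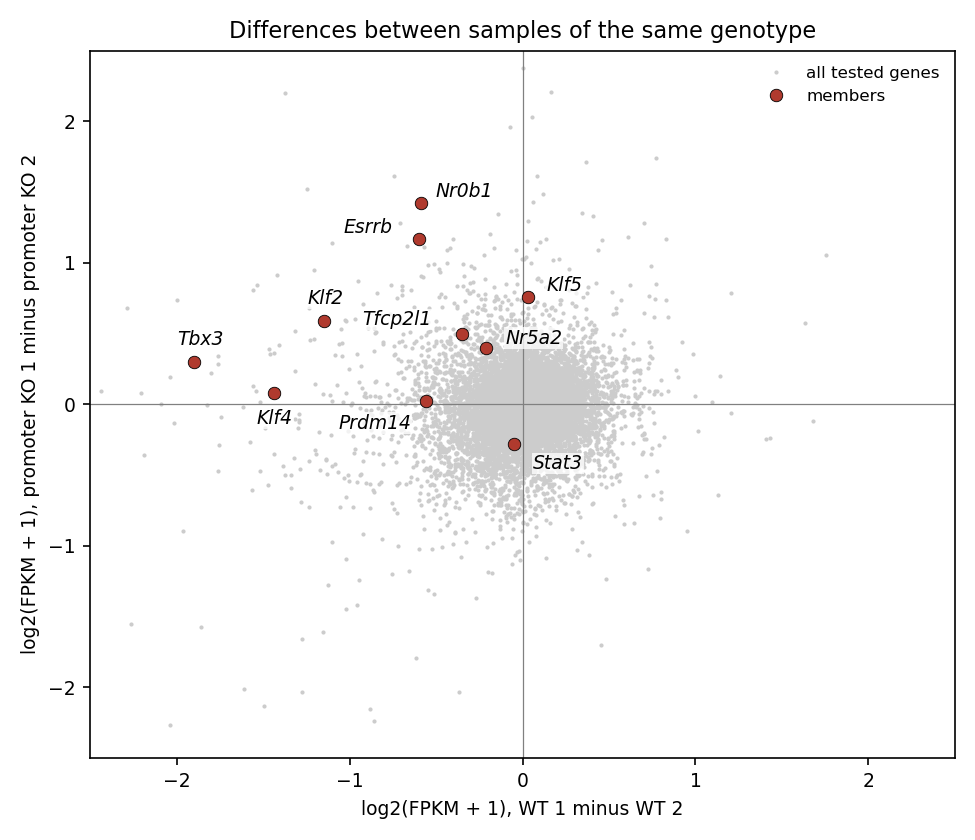
Difference in log2(FPKM + 1) between the promoter KO samples (vertical) and between the WT samples (horizontal) for the 10 naive factors, with all tested genes in grey and 8 of them outside the plotted range. *Nr0b1* and *Esrrb* lie high on the vertical axis, and *Tbx3*, *Klf4* and *Klf2* lie far to the left.

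Among the 8550 other tested genes with a mean of at least 5 FPKM, the 5 whose centred profile over the 4 samples was nearest to the mean profile of the tested naive factors were *Tex19.1* (Euclidean distance 0.064), *Pnma5* (0.159), *Lincenc1* (0.165), *Vgf* (0.221) and *Zfp42* (0.244). *Tex19.1*, a gene of pluripotent and germ cells, was at 7.22 and 12.3 FPKM in WT 1 and WT 2, against 20.8 FPKM (promoter KO 1) and 14.5 FPKM (promoter KO 2). *Zfp42*, which encodes the naive marker REX1, was at 12.9 and 21.6 FPKM in WT 1 and WT 2, compared with 46.6 FPKM (promoter KO 1) and 25.7 FPKM (promoter KO 2). In all 5 genes WT 1 was the lowest and promoter KO 1 the highest sample, and the likeness rests on 4 samples.

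The LIF and STAT3 pathway was followed through 21 genes, of which 19 were tested and 0 were called in either direction by limma. At an unadjusted p under 0.05, 1 was higher and 7 were lower, where the shares over all tested genes were 15.0% and 15.6%, and the median difference was -0.11. *Socs3*, a STAT3 target that feeds back on the receptor, was at 6.20 and 13.2 FPKM in WT 1 and WT 2, against 3.28 FPKM (promoter KO 1) and 4.0 FPKM (promoter KO 2). Both promoter KO samples were under the WT samples, as in *Stat3*, and the difference was -1.13 with an adjusted p of 0.0850. *Lifr*, the LIF receptor, was at 3.95 and 3.44 FPKM in WT 1 and WT 2, compared with 5.38 FPKM (promoter KO 1) and 3.39 FPKM (promoter KO 2), and the genotypes overlapped (adjusted p = 0.60). Of the 19 genes, in 8 both promoter KO values were under the WT values, beside 32.4% of all tested genes, and in 2 both were over them, beside 32.9%. Promoter KO 1 exceeded promoter KO 2 in 7 of the 19, beside 46.5% of all tested genes.

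**Figure D4:**
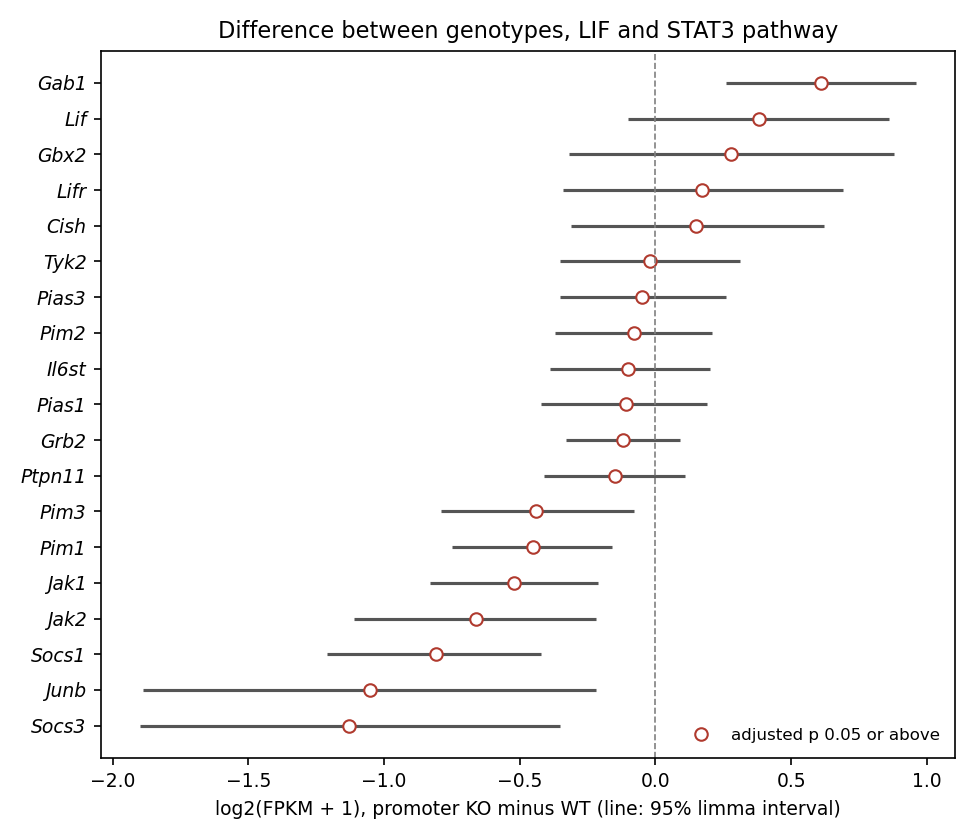
Difference between promoter KO and WT EBs in log2(FPKM + 1) for the 19 tested genes of the LIF and STAT3 pathway, with 95% intervals from limma. Open points have an adjusted p of 0.05 or above, which holds for all 19, and *Socs3* has the lowest value, -1.13.

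Of 29 partners of the naive network, all tested, 3 were called higher and 0 lower, where the shares over all tested genes were 1.68% and 1.89%, with a median difference of 0.62. At an unadjusted p under 0.05, 17 were higher and 2 lower, beside 15.0% and 15.6%. The list also holds genes that act against the naive state, such as the GSK3 genes and *Tcf7l1*, which was among the 17. Its counts therefore do not stand for a rise or fall of the naive network. *Tdh*, the threonine dehydrogenase of mESC metabolism, rose from 37.3 and 42.0 FPKM in WT 1 and WT 2 to 157 FPKM (promoter KO 1) and 87.9 FPKM (promoter KO 2) (adjusted p = 0.0440). *Dppa4*, a chromatin factor of pluripotent cells, rose from 33.6 and 32.0 FPKM in WT 1 and WT 2 to 85.4 FPKM (promoter KO 1) and 57.3 FPKM (promoter KO 2) (adjusted p = 0.0467). *Manba*, a lysosomal mannosidase placed here among the partners, rose from 3.8 and 4.07 FPKM in WT 1 and WT 2 to 8.97 FPKM (promoter KO 1) and 8.46 FPKM (promoter KO 2) (adjusted p = 0.0366). *Manba* was alike in the promoter KO samples, with a gap of 0.07 on the log2 scale, whereas the gap was 0.83 in *Tdh* and 0.57 in *Dppa4*. Promoter KO 1 was the higher promoter KO sample in all 3, as in most naive factors. Without promoter KO 2, *Tdh* and *Dppa4* kept their calls, and 0 of the 3 did without any one of the other samples. Promoter KO 1 exceeded promoter KO 2 in 23 of the 29, beside 46.5% of all tested genes.

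The core factors did not share 1 direction. *Nanog* was at 140 and 113 FPKM in WT 1 and WT 2, against 94.1 FPKM (promoter KO 1) and 98.7 FPKM (promoter KO 2), with both promoter KO samples lower (adjusted p = 0.0974). *Pou5f1* was at 1499 and 1188 FPKM in WT 1 and WT 2, compared with 1522 FPKM (promoter KO 1) and 1545 FPKM (promoter KO 2), where WT 1 and both promoter KO samples were close (adjusted p = 0.296). *Sox2*, used in naive cells and in the later epiblast and neural lineage, was at 88.4 and 102 FPKM in WT 1 and WT 2, against 200 FPKM (promoter KO 1) and 129 FPKM (promoter KO 2), with no overlap (adjusted p = 0.0801). *Zfp42*, given above, had an adjusted p of 0.110. *Tcf7l1*, the repressor of *Esrrb*, was at 29.4 and 30.1 FPKM in WT 1 and WT 2, compared with 51.9 FPKM (promoter KO 1) and 40.8 FPKM (promoter KO 2), again with no overlap (adjusted p = 0.0577).

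A list of 36 paralogues of the naive factors held genes of the KLF, ESRR, CP2, T-box, NR0B, NR5A, NR6A, PRDM and STAT families, and not all genes of the T-box and PRDM families. Of these 36, 25 were tested and 0 were called in either direction by limma, where 0 were higher and 6 lower by an unadjusted p under 0.05, beside 15.0% and 15.6% of all tested genes, with a median difference of -0.09. *Tbx6*, 1 of the 6, passed the filter only through the WT samples. The T-box genes *T* and *Eomes* were listed among the mesendoderm markers instead, and their differences were -2.19 (adjusted p = 0.0509) and -1.16 (adjusted p = 0.0547). *Klf16* had the highest mean of the 36 over the 4 samples, at 35.6 and 36.4 FPKM in WT 1 and WT 2, against 41.4 FPKM (promoter KO 1) and 33.9 FPKM (promoter KO 2), and the genotypes overlapped. No near-identical copy of any naive factor was found among annotated transcripts.

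Of 12 genes of the formative and primed epiblast, all tested, 3 were called higher and 1 lower, beside 1.68% and 1.89% of all tested genes, with a median difference of 0.35. *Pou3f1*, a POU factor of the formative state, rose from 44.6 and 40.2 FPKM in WT 1 and WT 2 to 88.9 FPKM (promoter KO 1) and 87.0 FPKM (promoter KO 2) (adjusted p = 0.0208). *Dnmt3a*, a de novo DNA methyltransferase, rose from 28.8 and 23.6 FPKM in WT 1 and WT 2 to 50.6 FPKM (promoter KO 1) and 42.9 FPKM (promoter KO 2) (adjusted p = 0.0442). *Sox3* rose from 35.9 and 29.0 FPKM in WT 1 and WT 2 to 56.4 FPKM (promoter KO 1) and 50.0 FPKM (promoter KO 2) (adjusted p = 0.0493). The gap between the promoter KO samples was 0.03 on the log2 scale in *Pou3f1*, 0.23 in *Dnmt3a* and 0.17 in *Sox3*. Its median size over all tested genes was 0.14. *Zic2* fell from 140 and 124 FPKM in WT 1 and WT 2 to 86.5 FPKM (promoter KO 1) and 86.7 FPKM (promoter KO 2) (adjusted p = 0.0389). *Fgf5* was at 88.9 and 66.3 FPKM in WT 1 and WT 2, compared with 69.2 FPKM (promoter KO 1) and 81.4 FPKM (promoter KO 2), and *Otx2* at 71.4, 61.9, 68.1 and 65.4 FPKM in the same order. Both overlapped between the genotypes, with adjusted p of 0.904 and 0.974. *Dnmt3b*, the most abundant, was at 427, 296, 417 and 447 FPKM and also overlapped. *Pou3f1* alone kept its call without WT 1 or without promoter KO 2, and 0 of the 4 did without WT 2 or without promoter KO 1.

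Markers of several other cell types also differed between the genotypes, in either direction, and their part in the differences of the naive factors was not tested. Of 9 mesendoderm markers, all tested, 0 were called higher and 6 lower (*Mixl1*, *Gsc*, *Mesp1*, *Lhx1*, *Evx1* and *Cer1*), beside 1.68% and 1.89% of all tested genes, with a median difference of -2.33 over the 9 and differences from -4.14 to -1.80 among the 6. Their FPKM summed to 814 and 1028 FPKM in WT 1 and WT 2, against 155 FPKM (promoter KO 1) and 323 FPKM (promoter KO 2), and 0 were at 0 in every sample. *Mixl1* fell from 63.0 and 76.3 FPKM in WT 1 and WT 2 to 5.56 FPKM (promoter KO 1) and 15.9 FPKM (promoter KO 2) (adjusted p = 0.0389). Promoter KO 1, with the higher naive factors, had the lower value of all 9 markers. The WT samples ran the other way, since WT 2, with the higher naive factors, had the higher value of 6 of the 9 and the higher sum. *Mesp1*, of nascent mesoderm, was at 27 and 101 FPKM in WT 1 and WT 2, compared with 0.759 FPKM (promoter KO 1) and 4.24 FPKM (promoter KO 2). WT 2 also had the higher *Tbx3*, as it had the higher value of 9 of the 10 naive factors, and a link to *Mesp1* was not tested. Of the 6 calls, 3 were kept without WT 1, 6 without promoter KO 2, and 0 without WT 2 or without promoter KO 1.

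Of 16 extraembryonic endoderm markers, 15 were tested, 9 were called higher (*Sox7*, *Dab2*, *Lama1*, *Col4a1*, *Col4a2*, *Sparc*, *Ttr*, *Amn* and *Cubn*) and 1 lower (*Gata6*), beside 1.68% and 1.89% of all tested genes, with a median difference of 1.39 and differences from 1.14 to 2.76 among the 9. *Sox7* and *Cubn* passed the filter only through the promoter KO samples, so that a difference was built into their selection, and without them 7 of 13 were called higher, with differences from 1.21 to 2.76. The 16 markers summed to 143 and 193 FPKM in WT 1 and WT 2, against 297 FPKM (promoter KO 1) and 373 FPKM (promoter KO 2), and 0 were at 0 in every sample. *Sparc*, the most abundant, rose from 46.0 and 59.3 FPKM in WT 1 and WT 2 to 111 FPKM (promoter KO 1) and 134 FPKM (promoter KO 2) (adjusted p = 0.0318). *Lama1*, a laminin of the basement membrane, rose from 1.51 and 2.18 FPKM in WT 1 and WT 2 to 14.5 FPKM (promoter KO 1) and 22.7 FPKM (promoter KO 2) (adjusted p = 0.0208). *Gata6*, also used in mesendoderm, fell from 12.8 and 21.7 FPKM in WT 1 and WT 2 to 4.13 FPKM (promoter KO 1) and 5.18 FPKM (promoter KO 2) (adjusted p = 0.0389). *Sox17* and *Pdgfra* also had both promoter KO samples under the WT samples, with differences of -0.79 (adjusted p = 0.0779) and -1.04 (adjusted p = 0.159), and *Gata4* overlapped between the genotypes. Promoter KO 1 was the lower of the promoter KO samples in 13 of the 15, the reverse of the order in most naive factors. Of the 10 calls, 8 were kept without WT 1, 7 without promoter KO 2, and 0 without WT 2 or without promoter KO 1.

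**Figure D5:**
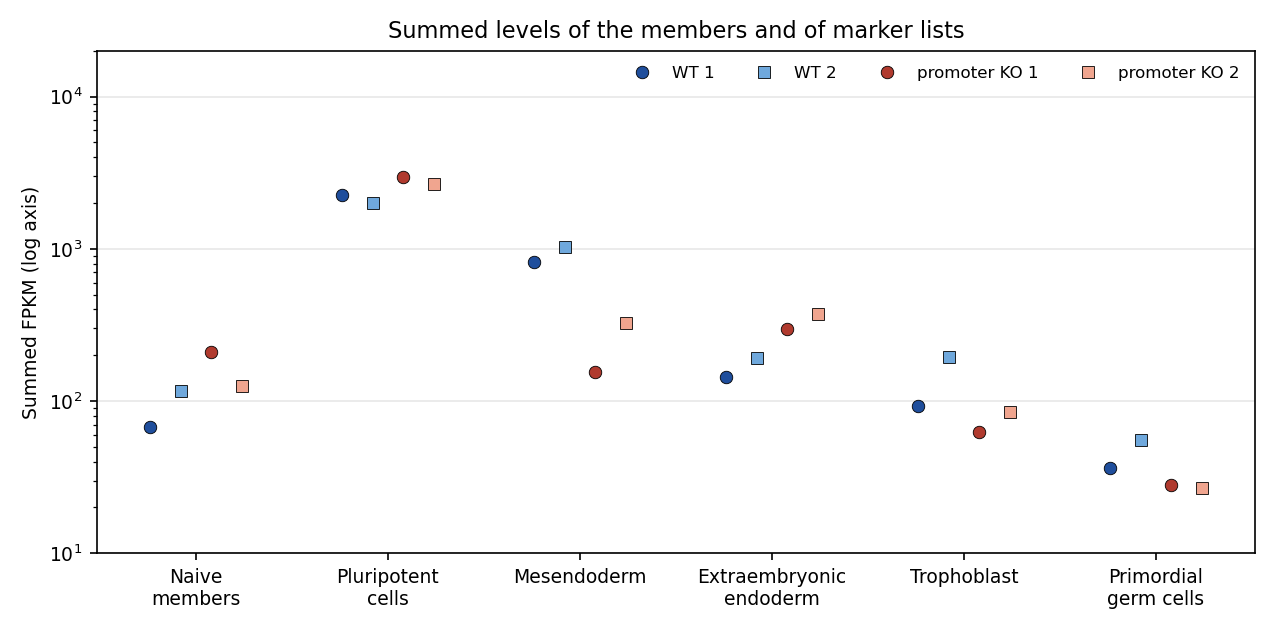
Summed FPKM of the 10 naive factors and of marker lists in each sample, on a log axis. The naive factors summed to 67.1 and 116 FPKM in WT 1 and WT 2, compared with 211 FPKM (promoter KO 1) and 125 FPKM (promoter KO 2), and the mesendoderm markers are lowest in promoter KO 1, where the naive factors are highest, but higher in WT 2 than in WT 1, as the naive factors are.

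Of 7 markers of pluripotent cells, all tested and 5 of them also among the partners, 1 was called higher and 0 lower, beside 1.68% and 1.89% of all tested genes, with a median difference of 0.20. *Utf1*, a chromatin factor of pluripotent cells, rose from 262 and 297 FPKM in WT 1 and WT 2 to 828 FPKM (promoter KO 1) and 617 FPKM (promoter KO 2) (adjusted p = 0.0275), a call kept without promoter KO 2 and lost without any one of the other samples. The list summed to 2257 and 2002 FPKM in WT 1 and WT 2, against 2958 FPKM (promoter KO 1) and 2684 FPKM (promoter KO 2), with *Pou5f1* the most abundant. Without *Pou5f1* it summed to 757, 813, 1435 and 1139 FPKM in the same order.

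Of 9 trophoblast markers, 6 were tested, 0 were called higher and 1 lower, beside 1.68% and 1.89% of all tested genes. The 1 called lower was *Tfap2c*, at 9.60 and 16.2 FPKM in WT 1 and WT 2, compared with 3.87 FPKM (promoter KO 1) and 3.83 FPKM (promoter KO 2) (adjusted p = 0.0422). By an unadjusted p under 0.05, 1 of the 6 was higher (*Ascl2*) and 3 were lower, beside 15.0% and 15.6% of all tested genes. *Hand1*, 1 of the 6 but not of these 3, passed the filter only through the WT samples. The list summed to 93.2 and 194 FPKM in WT 1 and WT 2, against 62.3 FPKM (promoter KO 1) and 84.1 FPKM (promoter KO 2), most of it *Krt8*, at 68.5, 132, 46.5 and 65.7 FPKM. The trophoblast gene *Elf5* was at or below 0.0473 FPKM in every sample, but other genes of the list were not so low. *Cdx2* was at 5.77 and 25.4 FPKM in WT 1 and WT 2, against 2.49 FPKM (promoter KO 1) and 5.51 FPKM (promoter KO 2). *Hand1* reached 11.3 FPKM and *Gata3* 1.47 FPKM in WT 2. Of 7 primordial germ cell markers, 6 were tested, 0 were called higher and 2 lower (*Dnd1* and *Tfap2c*), beside 1.68% and 1.89% of all tested genes. *Tfap2c* is in both lists. *Dnd1*, with the highest mean over the 4 samples, fell from 17.3 and 25.3 FPKM in WT 1 and WT 2 to 7.19 FPKM (promoter KO 1) and 9.22 FPKM (promoter KO 2) (adjusted p = 0.0433). Some germ cell markers lay the other way. *Ddx4*, an RNA helicase, was at 6.45 and 7.05 FPKM in WT 1 and WT 2, against 10.4 FPKM (promoter KO 1) and 8.43 FPKM (promoter KO 2) (adjusted p = 0.124). *Dazl*, an RNA-binding protein, had a difference of 0.90 (adjusted p = 0.0635) and passed the filter only through the promoter KO samples. *Nanos3*, not tested, also had both promoter KO samples above the WT samples. By an unadjusted p under 0.05, 2 of the 6 were higher and 2 lower, again beside 15.0% and 15.6% of all tested genes. That list summed to 36.5 and 55.6 FPKM in WT 1 and WT 2, compared with 28.0 FPKM (promoter KO 1) and 26.6 FPKM (promoter KO 2). The calls of *Dnd1* and *Tfap2c* were kept without WT 1 and lost without any one of the other samples.

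Markers of 2-cell-like cells and of feeder fibroblasts were low. Of 7 genes of 2-cell-like cells, 2 were tested and 0 called in either direction by limma, also at an unadjusted p under 0.05. They summed to 3.47 and 1.32 FPKM in WT 1 and WT 2, against 7.31 FPKM (promoter KO 1) and 2.97 FPKM (promoter KO 2), with *Tcstv1* at 0 in every sample and *Zscan4d* at 1.18, 0.534, 1.73 and 1.09 FPKM, close to *Zscan4f* at 1.02, 0.393, 2.14 and 0.954 FPKM. Of 7 feeder genes, 2 were tested and 0 called. At an unadjusted p under 0.05, 0 were higher and 1 was lower (*Col1a1*), beside 15.0% and 15.6% of all tested genes. *Col1a1* passed the filter only through the WT samples. The 7 feeder genes summed to 12.8, 12.3, 17.3 and 10.9 FPKM, most of it *Thy1* at 11.3, 10.2, 16.1 and 9.82 FPKM, with *Postn* and *Lum* at 0 in every sample.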

How the data were processed

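RNA-seq values of day 3 EBs from 2 WT and 2 promoter KO samples were used, grouped by the genotype in the labels. The values the authors deposited were taken as FPKM, because Cufflinks had estimated them, although the files name no unit and the methods call it RPKM. The methods name TopHat for mapping to GRCm38/mm10, while the submitters' processing notes name HISAT2 2.1.0, Cufflinks and Cuffnorm. The authors tested with Cuffdiff, which needs alignments not used here.

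Genotypes were compared on log2(FPKM + 1), with a pseudocount of 1 and no further normalization, by limma 3.58.1 (R 4.3.3, eBayes with trend) in genes that reached 1 FPKM in 2 or more samples. The fit was checked on simulated data in which genes of like level had a like spread. That check does not cover genes with wide gaps between samples. For 2 samples against 2, the smallest exact two-sided permutation p is 0.333. Named genes are the 10 naive factors, *Gm11549*, 10 genes fixed by name, list genes with an adjusted p under 0.05, the gene of each marker list with the highest mean and the 5 genes of nearest profile. *Klf16*, *Dnmt3b*, *Elf5*, *Tcstv1*, *Postn*, *Lum*, *Tbx6*, *Eomes*, *Sox17*, *Pdgfra*, *Gata4*, *Ascl2*, *Hand1*, *Ddx4*, *Dazl*, *Nanos3*, *Col1a1*, *Zscan4f*, *Socs1*, *Pim1* and *Junb* were added after their values were seen. So were *Zfp281*, *Tfe3*, *Fgf4*, *Dppa2*, *Dppa5a*, *Smarcad1*, *Foxd3*, *Sall2*, *Lamb1*, *Klf6*, *Cdx2* and *Gata3*. The members and lists were chosen with earlier results of these data known. Overlaps came from GENCODE M21 and near-identical copies from BLAST 2.17.0. Alternatives were another pseudocount, other filters, limma without the trend, median centring, quantile normalization, a replicate block, fold change thresholds, the ratio of mean FPKM and each sample left out. Tables and figures were made with Python 3.11.15, numpy 2.4.6, pandas 2.3.3 and matplotlib 3.10.9.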

Additional observations from a re-analysis of the deposited data

How the results depend on the processing

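The directions of the tested naive factors held under each alternative, except that without WT replicate 1 *Klf4* was at -0.05 and *Tbx3* at -0.58 on the log2 scale, by the loss of the sample in which both are low. Over the fits without 1 sample *Klf4* ranged from -0.05 to 1.39 and *Tbx3* from -0.58 to 1.32. Their median difference, 0.80, ranged from 0.56 without WT replicate 1 to 1.32 without WT replicate 2 over the alternatives, and the median difference between the promoter KO samples over the tested factors, 0.50, was between 0.53 and 0.60 with another pseudocount, median centring or quantile normalization. Counts of calls moved more. All tested genes gave 201 higher and 226 lower. They gave 0 and 0 without the filter (4059 at an unadjusted p under 0.05), 95 and 108 with a filter at a mean of 5 FPKM, 55 and 27 without the trend, and 157 and 126 with median centring, so that without the trend or with centring more were higher than lower. Over the fits without 1 sample they ranged from 0 to 238 higher and from 0 to 248 lower, where the lone sample of a genotype is assumed to vary like the other group. The cause was not tested.

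Naive factors called higher, 1 in the report, were 0 without the filter, with the filter at 5 FPKM and without the trend, 3 at a fold change over 2 with an unadjusted p under 0.05 (among 167 genes higher and 195 lower at a fold change past 2 in either direction), and from 0 to 4 over the fits without 1 sample. With the replicate number as a replicate block, 2 were called (*Nr0b1* and *Nr5a2*), among 535 genes higher and 667 lower. No source says that the numbers pair the samples, and the deviations of same-numbered samples correlated at 0.0348 across genes. With 2 samples of each genotype and a depth estimated only from FPKM, genes near 1 FPKM such as *Nr5a2* and *Prdm14* are the least certain.

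Calls in the other lists also moved. With the replicate block all of them were kept and more genes were called. In the LIF and STAT3 pathway, *Socs1* (limma adjusted p = 0.0382), *Socs3* (0.036), *Pim1* (0.0467) and *Junb* (0.01) were then called lower. Among the mesendoderm markers, *T* (0.00809) and *Eomes* (0.0236) were also called lower with the block. Among the partners, *Zfp281*, *Tfe3*, *Tcf7l1*, *Fgf4*, *Dppa2*, *Dppa5a* and *Smarcad1* were then called higher. Of the remaining lists, *Foxd3*, *Sall2*, *Lamb1* and *Dazl* were also called higher, and *Klf6*, *Sox17*, *Cdx2* and *Krt8* lower. Without the filter 0 of the calls of the main fit were kept. Of the 6 mesendoderm calls, 2 were kept without the trend, 4 with median centring, a pseudocount of 0.1 or the filter at 5 FPKM, and 5 with quantile normalization. Of the 10 extraembryonic endoderm calls, 6 were kept without the trend and 7 with the filter at 5 FPKM. Of the 3 calls among the partners, 1 was kept without the trend or with the filter at 5 FPKM and 2 with median centring. Of the 4 formative calls, 1 was kept without the trend and 3 with median centring, quantile normalization, a pseudocount of 0.1 or the filter at 5 FPKM. *Utf1*, *Dnd1* and *Tfap2c* lost their calls without the trend. The cause was not tested.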
